A study of Mus musculus with 5 samples.

Results

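The genes described here are 50 members of the Wnt system on the array, out of 22180 genes with a named probe. They were chosen by name, with earlier results of these data known. They are all Wnt ligands, the Frizzled receptors, the secreted Frizzled-related proteins Sfrp1, Sfrp2, Sfrp4 and Sfrp5, and the Dickkopf proteins Dkk1 to Dkk4. The others are Lrp5, Lrp6, Axin2, Lef1, Lgr4, Lgr5, Lgr6, Rspo1, Rspo2, Rspo3, Wif1, Znrf3 and Rnf43. Genes with more than 1 probe are represented by the probe of highest average value. By role, 19 were ligands, 10 Frizzled receptors, 2 co-receptors, 9 secreted antagonists, 8 belonged to the R-spondin axis, and the remaining 2 were the feedback target Axin2 and the nuclear factor Lef1.

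The study asked what a limited pulse of reprogramming factors (OSKM: Oct4, Sox2 and Klf4 with c-Myc) does to alveolar epithelial type II (AEC-II) cells, the surfactant-making cells of the alveolus. The cells came from lungs of R26-rtTA/Col1a1::tetO-4F2A mice, of an age not stated, in which doxycycline (Dox) switches on the 4 factors from 1 cassette. They were sorted as EpCAM-positive cells lacking CD45 and CD31. The paper also used such mice with an Oct4-GFP reporter, and whether the arrayed cells carried it is not stated. There were 5 arrays, 1 per condition: fresh cells (Day0), cells after 2 weeks of culture without Dox (2WND), passaged cells after a further 2 weeks with Dox (2WND+2W+D, called AEC-II-iPL cells), cells kept a further 2 weeks after Dox was taken away (2WND+2W+D+2W-D), and induced pluripotent stem cells (iPS). RNA from separate samples of a condition was used, and whether it was combined on the 1 array is not stated. All 4 AEC-II conditions carried the rtTA and the factor cassette, and the origin of the iPS cells is not stated. The cultures grew in Matrigel over mouse embryonic fibroblast feeders, in an epithelial medium before Dox and in embryonic stem cell medium with it, so Dox, passage and medium cannot be told apart in the comparison of 2WND+2W+D with 2WND. The colonies were passaged again for the 2 weeks without Dox, in a medium that is not named. Dox removal and passage thus cannot be told apart in the comparisons with 2WND+2W+D+2W-D.

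Wnt proteins are secreted, lipid-modified signals that bind a Frizzled receptor together with Lrp5 or Lrp6 and so keep beta-catenin from being destroyed, and beta-catenin with TCF/LEF proteins then drives targets such as Axin2, which damps the pathway again. Sfrp and Wif1 proteins bind the ligands and most Dickkopf proteins bind the co-receptors, while R-spondins, through Lgr4, Lgr5 or Lgr6, take the ligases Znrf3 and Rnf43 away from the surface and leave more Frizzled there. Other ligands, Wnt5a among them, act largely without beta-catenin. In the adult lung, Wnt signals from neighboring fibroblasts are known to help maintain AEC-II cells that renew the alveolus.

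All values are deposited log2 expression values of 1 array each, and a difference of 1 is 2-fold. With 1 array per condition there was no replicate spread, so no test was made and every difference is that between 2 arrays. As a scale, the differences between 2WND+2W+D+2W-D and 2WND, the closest pair, had a robust SD of 0.229 over the 15436 genes compared. Genes compared were those whose highest value reached 4.78, the median of all deposited values. Of the members, 40 passed and 10 did not. Array medians lay between 4.71 and 4.83. AEC-II markers had a median level of 12.78 in Day0, 11.08 in 2WND, 10.48 in 2WND+2W+D, 11.31 in 2WND+2W+D+2W-D and 5.07 in iPS. Of the pluripotency markers, 10 of 10 were at least 2-fold higher in iPS than in 2WND (15.6% of all genes were). Counted from the median of all values, 9 of 10 were, Esrrb being at least 1.53-fold higher. The labels give no sex, and Xist, the RNA that silences an X chromosome, was at 4.08 in Day0, 5.27 in 2WND, 8.85 in 2WND+2W+D, 5.37 in 2WND+2W+D+2W-D and 4.74 in iPS, while the Y-linked gene Kdm5d was at 6.90 in Day0, 6.32 in 2WND, 6.55 in 2WND+2W+D, 6.52 in 2WND+2W+D+2W-D and 4.53 in iPS. Among other Y-linked genes, Eif2s3y was at 6.62 in Day0, 6.50 in 2WND, 5.92 in 2WND+2W+D, 6.80 in 2WND+2W+D+2W-D and 3.31 in iPS, and Uty was at 7.35 in Day0, 7.03 in 2WND, 6.54 in 2WND+2W+D, 7.21 in 2WND+2W+D+2W-D and 4.16 in iPS, both lower under Dox, where Xist was higher. The part of this difference in any result below was not tested.

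Across the 5 arrays, 29 of the 40 members compared had a span of 2-fold or more from lowest to highest array, against 57.1% of all genes compared. A span of at least 4-fold was found for 16 of the 40, against 23.5%. The 2WND+2W+D array held the highest value for 16 members (40% of the 40, against 18.6% of all genes), and Day0 for 11 (27.5%, against 24.5%). Of the 16, Lgr5 and Wnt16 reached the level needed to be compared only on the 2WND+2W+D array. Lrp6, Fzd1 and Wnt5b were highest there by only 0.09, 0.1 and 0.11, below the robust SD of 0.229 given above. How many of all genes were highest in these ways was not counted. The lowest value lay in iPS for 17 members (42.5%, against 33.3% of all genes), in Day0 for 14 (35%, against 23.5%) and in 2WND for 0 (0%, against 10.1%). The heat map of all 50 genes shows this as a block of high values under Dox among the antagonists and R-spondins, low values of the same genes in Day0, and low Frizzled values in iPS.

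**Figure D1:**
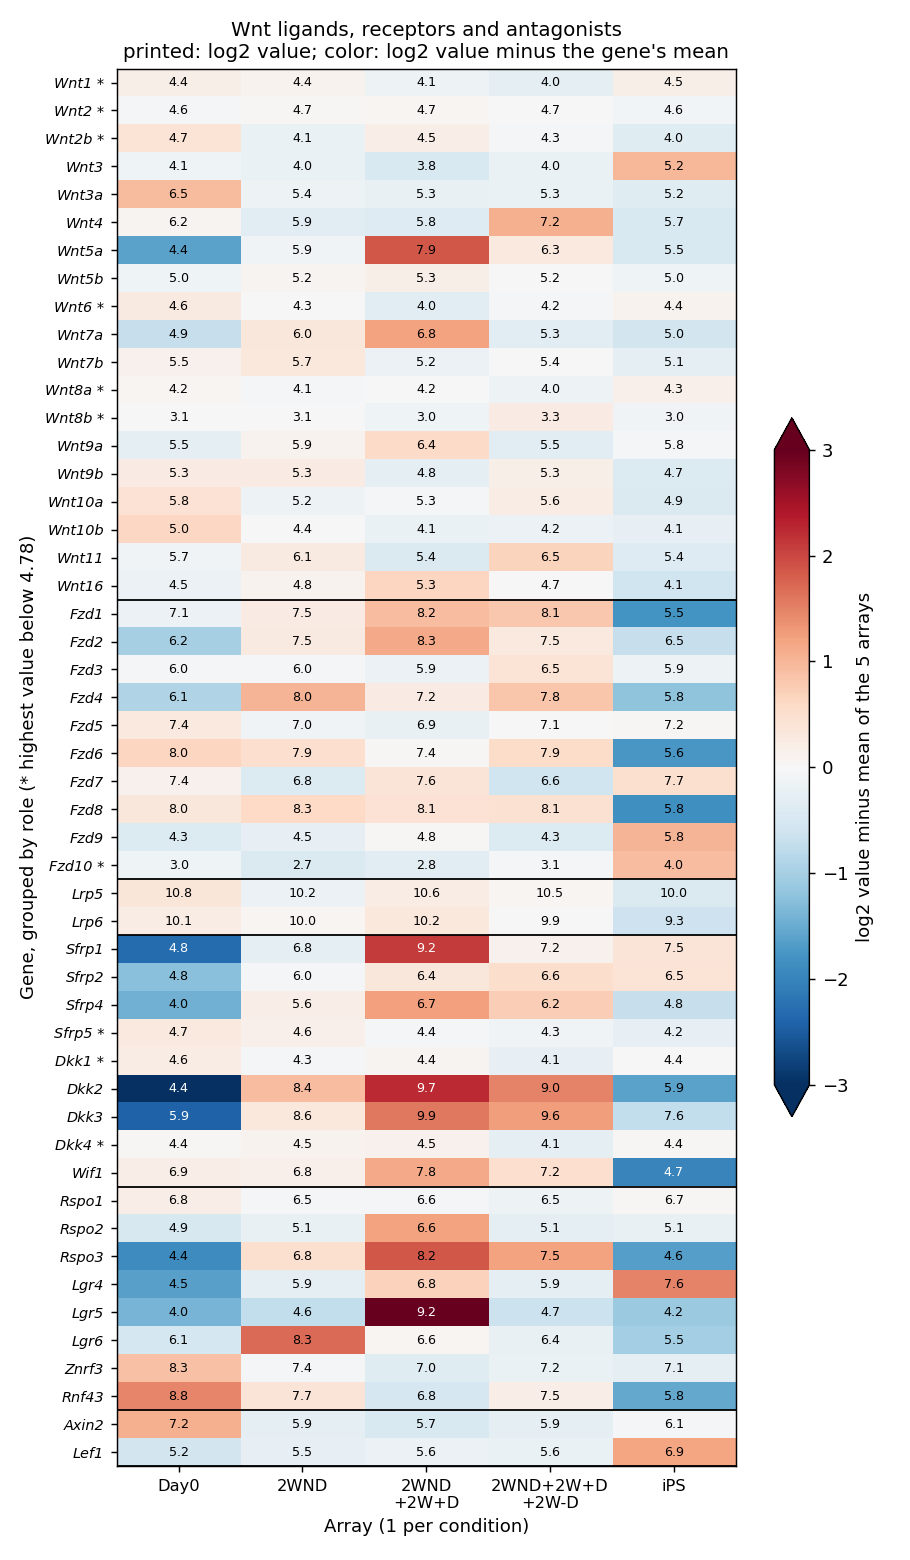
Log2 expression value of each of the 50 genes (rows, grouped by role) on each of the 5 arrays (columns); colors give the value minus the gene's mean over the 5 arrays, and asterisks mark the 10 genes that stayed below 4.78 on every array. The darkest red cell is Lgr5 in 2WND+2W+D, at 9.25, and the darkest blue is Dkk2 in Day0, at 4.43.

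After 2 weeks of culture, 12 of the 40 members were at least 2-fold higher in 2WND than in Day0 (8.94% of all genes compared were) and 3 were at least 2-fold lower (5.21%). The higher genes were the antagonists Dkk2, Dkk3, Sfrp1, Sfrp2 and Sfrp4, the R-spondin Rspo3 with the receptors Lgr4 and Lgr6, the Frizzleds Fzd2 and Fzd4, and the ligands Wnt5a and Wnt7a. Counted from the median of all values, Sfrp4 was only at least 1.80-fold higher, which leaves 11 of the 12. The lower genes were Axin2, Rnf43 and Wnt3a. The members' median difference was 0.23, against 0.01 over all genes.

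Under Dox, 9 members were at least 2-fold higher in 2WND+2W+D than in 2WND (6.90% of all genes) and 1 was lower (7.56%). The 9 were Lgr5, Sfrp1, Wnt5a, Rspo2, Rspo3, Dkk2, Dkk3, Sfrp4 and Wif1, and the lower one was Lgr6. Wif1 lay just inside the limit with a difference of 1.0013, and Lgr4 just outside it with 0.9642. The median difference was 0.18 for the members, and it was -0.05 over all genes.

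After withdrawal, 5 members were at least 2-fold lower in 2WND+2W+D+2W-D than in 2WND+2W+D (6.17% of all genes) and 2 were higher (8.08%). Lgr5, Sfrp1, Wnt5a, Wnt7a and Rspo2 were lower, and the ligands Wnt4 and Wnt11 were higher. Fzd7 lay just outside the limit with a difference of -0.98. The median difference was -0.14 for the members and 0.03 over all genes.

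Set against the culture before Dox, the withdrawn cells differed by 2-fold in 2 members, Wnt4, which was higher in 2WND+2W+D+2W-D than in 2WND (0.888% of all genes were higher), and Lgr6, which was lower (0.415%). The members' root mean square difference between these arrays was 0.508 on the log2 scale, against 0.322 over all genes. That measure gives most weight to the largest differences, here Lgr6 (-1.91) and Wnt4 (1.38). The robust SD was 0.299 for the members and 0.229 over all genes. Between 2WND+2W+D and 2WND the root mean square was 1.12, against 0.821. Lgr5 entered it with its measured difference of 4.63, although its 2WND value lay under 4.78. The robust SD there was 0.833, against 0.505.

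In iPS, 10 members were at least 2-fold lower than in 2WND (17.8% of all genes) and 4 were higher (15.6%). The lower ones included Fzd1, Fzd4, Fzd6 and Fzd8, and the higher ones were Lgr4, Lef1, Fzd9 and Wnt3. Fzd9 and Wnt3 lay below the median of all values in 2WND, and counted from that median 2 members, Lgr4 and Lef1, were 2-fold higher. The median difference was -0.32 for the members, against -0.06 over all genes. These comparisons share arrays, 2WND entering 4 of the 5, and so are not independent of each other. The plot of differences by comparison sets each member against the spread of all genes.

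**Figure D2:**
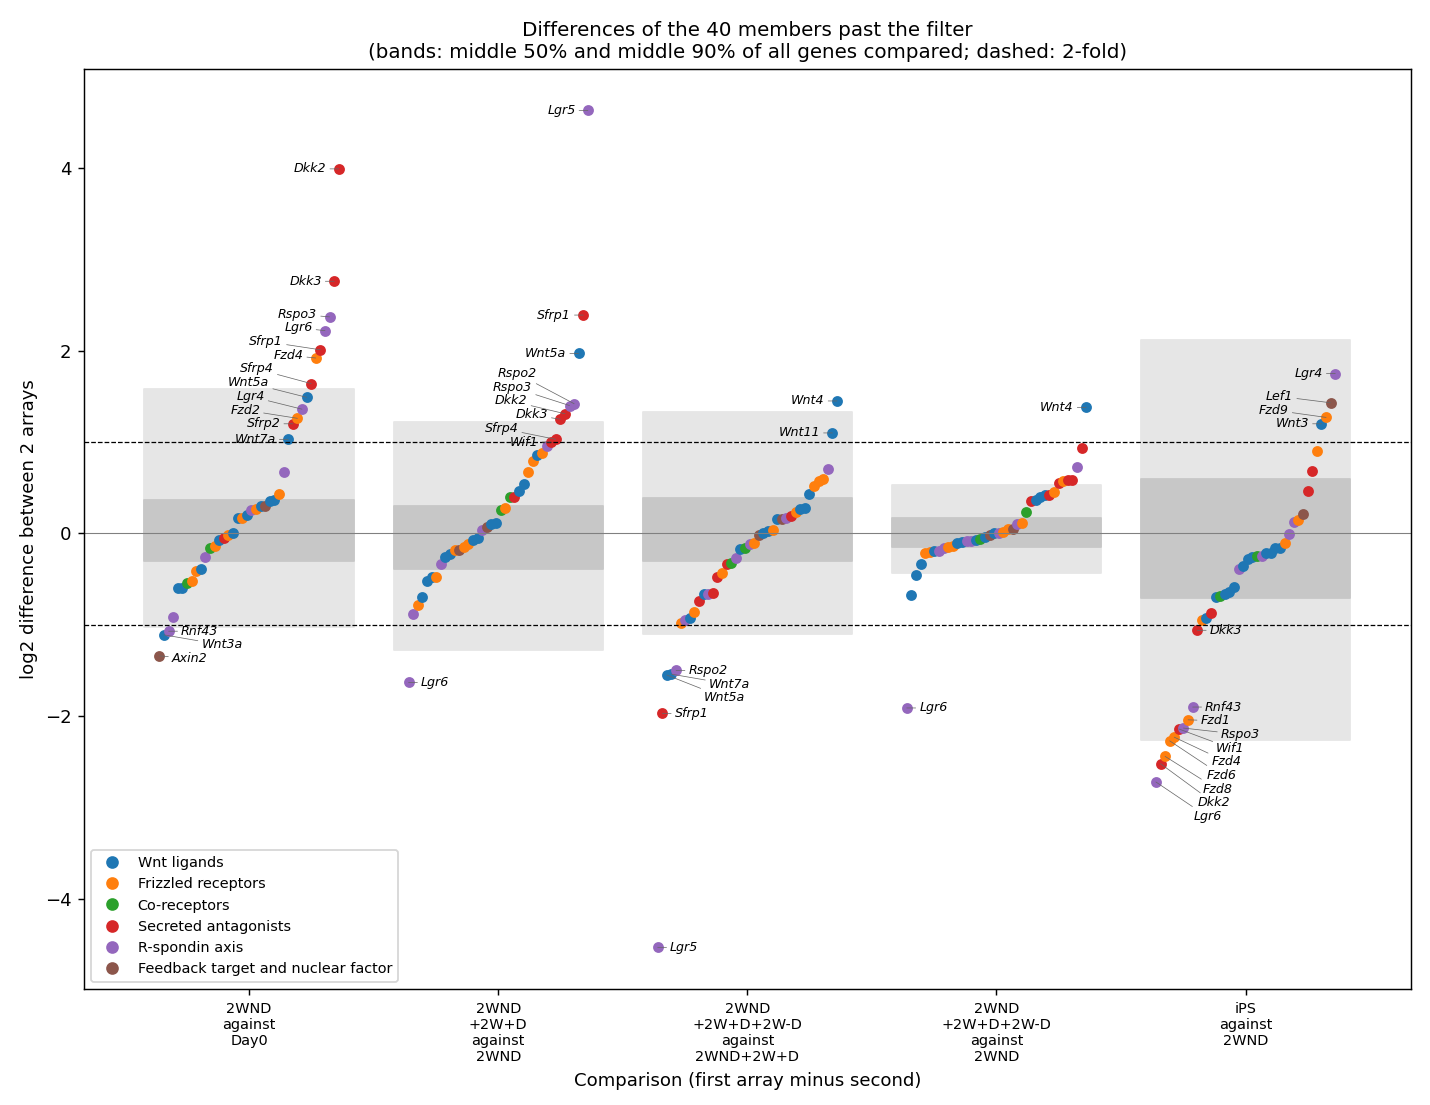
Log2 difference of each of the 40 members that reached 4.78 on an array (points, colored by role and sorted by value) in the 5 comparisons; gray bands hold the middle 50% and 90% of the 15436 genes compared and dashed lines mark 2-fold. Lgr5 is the topmost point in 2WND+2W+D against 2WND and the lowest in 2WND+2W+D+2W-D against 2WND+2W+D, plotted at its measured differences although its lower array lay under 4.78 in both, and in 2WND+2W+D+2W-D against 2WND only Wnt4 and Lgr6 pass the dashed lines.

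Of the 13 ligands compared, 9 to 12 stayed within 2-fold in each comparison. The list is too short to set against the shares of all genes given above. The ligands that did differ by 2-fold followed different courses. Wnt5a, a ligand that acts largely without beta-catenin and is made by lung mesenchyme, was at 4.42 in Day0, 5.91 in 2WND, 7.88 in 2WND+2W+D, 6.32 in 2WND+2W+D+2W-D and 5.55 in iPS. It was 3.92-fold higher in 2WND+2W+D than in 2WND, and 2.93-fold lower in 2WND+2W+D+2W-D than in 2WND+2W+D. The withdrawn cells stood 0.42 above 2WND for Wnt5a, so most of the difference seen under Dox was not present after it.

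Wnt7a, a ligand known from limb and nervous system patterning, was at 4.92 in Day0, 5.95 in 2WND, 6.82 in 2WND+2W+D, 5.28 in 2WND+2W+D+2W-D and 5.04 in iPS. Its highest array was also the Dox array, and after withdrawal it was 2.90-fold lower than under Dox. Wnt9a was highest there too, at 6.38, with 5.46 in 2WND+2W+D+2W-D, a difference of -0.92 that stayed short of 2-fold.

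Wnt4 and Wnt11 had the reverse course between the Dox array and the withdrawn one. Wnt4, a ligand needed for kidney and female reproductive tract development, was at 6.25 in Day0, 5.86 in 2WND, 5.79 in 2WND+2W+D, 7.24 in 2WND+2W+D+2W-D and 5.70 in iPS. It was 2.73-fold higher in 2WND+2W+D+2W-D than in 2WND+2W+D and 2.60-fold higher than in 2WND, the withdrawn array being above each of the other four. Wnt11, which guides cell movements largely without beta-catenin, was at 5.71 in Day0, 6.07 in 2WND, 5.37 in 2WND+2W+D, 6.47 in 2WND+2W+D+2W-D and 5.43 in iPS. Its 2.15-fold difference between 2WND+2W+D+2W-D and 2WND+2W+D combined a lower value under Dox and a value 0.40 above 2WND after it.

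Wnt3a, a ligand that signals through beta-catenin, was at 6.48 in Day0, 5.37 in 2WND, 5.32 in 2WND+2W+D, 5.33 in 2WND+2W+D+2W-D and 5.16 in iPS. Day0 stood apart, 2WND being 2.16-fold lower than it, and the 3 cultured AEC-II arrays lay within 0.05 of each other. Wnt3, which is needed for the primitive streak of the mouse embryo, was above the median of all values only in iPS, where it was at 5.25, against 4.04 in 2WND, at least 1.38-fold counted from that median. The other ligands compared (Wnt5b, Wnt7b, Wnt9b, Wnt10a, Wnt10b and Wnt16) differed by less than 2-fold in every comparison, and Wnt1, Wnt2, Wnt2b, Wnt6, Wnt8a and Wnt8b never reached 4.78. Wnt2, a ligand of fetal lung mesenchyme, was at 4.63 in Day0, 4.70 in 2WND, 4.73 in 2WND+2W+D, 4.67 in 2WND+2W+D+2W-D and 4.59 in iPS.

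The stretch just before the transcription start is shown for Wnt4 and Wnt11, the 2 members at least 2-fold higher after withdrawal than under Dox, and for Axin2, the feedback target, because TCF/LEF proteins bind short DNA motifs in such control regions. Sequences are the 250 bases upstream of the start from RefSeq (GRCm38.p6), plus strand, printed 5′ to 3′, and capitals mark a match to CTTTGAA or CTTTGAT, or to CTTTGTA or CTTTGTT, on either strand. The Axin2 window is chr11:108920099-108920348, the Wnt4 window chr4:137277385-137277634, and the Wnt11 window chr7:98834862-98835111.
Axin2: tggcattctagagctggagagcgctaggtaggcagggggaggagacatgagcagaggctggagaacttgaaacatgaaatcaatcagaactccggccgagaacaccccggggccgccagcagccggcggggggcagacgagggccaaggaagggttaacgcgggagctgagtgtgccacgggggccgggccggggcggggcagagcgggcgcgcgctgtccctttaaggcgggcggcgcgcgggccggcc
Wnt4: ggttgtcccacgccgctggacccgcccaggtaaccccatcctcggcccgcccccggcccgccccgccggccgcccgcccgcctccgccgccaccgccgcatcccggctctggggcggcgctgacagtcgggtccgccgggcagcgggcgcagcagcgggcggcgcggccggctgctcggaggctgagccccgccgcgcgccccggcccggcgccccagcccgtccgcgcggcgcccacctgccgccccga
Wnt11: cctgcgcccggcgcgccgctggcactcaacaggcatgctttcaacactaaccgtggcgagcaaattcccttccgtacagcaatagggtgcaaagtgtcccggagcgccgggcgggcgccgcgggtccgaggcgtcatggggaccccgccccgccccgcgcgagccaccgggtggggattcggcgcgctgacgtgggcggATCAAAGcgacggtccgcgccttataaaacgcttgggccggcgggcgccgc
The Wnt11 window holds CTTTGAT on the opposite strand, printed here as ATCAAAG, starting 51 bases before the start, and a second Wnt11 start had no match. No match was found in the Wnt4 and Axin2 windows, which says only that these letters are not in these 250 bases. RefSeq windows were at hand for 32 of the 50 genes, 39 windows in all, of which 5 held at least 1 of the 4 motifs, against 14.8% of the 32851 windows of all genes. The windows differ in base makeup, with 69.2% G and C for Axin2, 85.2% for Wnt4 and 70.8% for Wnt11, against a median of 52.4% over all windows. A match describes letters and is no evidence of binding.

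None of the 9 Frizzled genes compared differed 2-fold between 2WND+2W+D and 2WND, where 14.5% of all genes did. None did between 2WND+2W+D+2W-D and 2WND+2W+D, where 14.3% of all genes did. A list of 9 is too short to set against those shares. Fzd2 was at 6.21 in Day0, 7.47 in 2WND, 8.35 in 2WND+2W+D, 7.49 in 2WND+2W+D+2W-D and 6.52 in iPS, 2.40-fold higher in 2WND than in Day0. Fzd4, which also binds the non-Wnt ligand norrin in vessels of the retina, was at 6.06 in Day0, 7.98 in 2WND, 7.21 in 2WND+2W+D, 7.78 in 2WND+2W+D+2W-D and 5.76 in iPS. It was 3.79-fold higher in 2WND than in Day0, and its highest array was 2WND and not the Dox array.

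In iPS, 4 Frizzled genes were lower by 2-fold or more than in 2WND (17.8% of all genes were), Fzd4 by 4.68-fold. The list is too short for that share as well. Fzd8 was at 8.0 in Day0, 8.27 in 2WND, 8.09 in 2WND+2W+D, 8.13 in 2WND+2W+D+2W-D and 5.83 in iPS, where it was 5.44-fold lower than in 2WND. Fzd6, a receptor of planar cell polarity in hair and skin, was at 8.03 in Day0, 7.89 in 2WND, 7.41 in 2WND+2W+D, 7.93 in 2WND+2W+D+2W-D and 5.62 in iPS. Fzd1 was at 7.09 in Day0, 7.51 in 2WND, 8.19 in 2WND+2W+D, 8.08 in 2WND+2W+D+2W-D and 5.47 in iPS. For each of these 3 receptors iPS was the lowest array and the 4 AEC-II arrays lay above it by more than 2-fold. The median Frizzled difference between iPS and 2WND was -0.95. Fzd9 went the other way, at 5.78 in iPS against 4.51 in 2WND, at least 1.99-fold counted from the median of all values, and Fzd7, a receptor of pluripotent cells, was at 7.73 in iPS against 6.84 in 2WND, short of 2-fold. The co-receptors differed by less than 2-fold, with Lrp5 between 9.98 in iPS and 10.77 in Day0, and Lrp6 between 9.28 in iPS and 10.22 in 2WND+2W+D.

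Secreted antagonists had the largest median difference of the role groups both in 2WND against Day0 and in 2WND+2W+D against 2WND. Of the 6 compared, 5 were at least 2-fold higher in 2WND than in Day0 (8.94% of all genes were). Their median difference over the 6 was 1.82, or 1.61 with values under 4.78 set to that level. The 5 include Sfrp4, which was at least 1.80-fold higher from the median of all values, and without it there were 4. In 2WND+2W+D against 2WND, 5 were at least 2-fold higher (6.90% of all genes were), with a median of 1.14. A list of 6, like that of the Frizzled genes, is too short to set against these shares. All 6 had a difference above 0, as did 7096 of all 15436 genes. Among the 5, Sfrp4 (1.03) and Wif1 (1.0013) lay just inside 2-fold and came under it with array medians aligned. Dkk2, Dkk3, Sfrp1 and Sfrp4 were in both counts, Sfrp2 only in the first and Wif1 only in the second. After withdrawal only Sfrp1 was 2-fold lower than under Dox (median -0.57), and the antagonists stayed above 2WND by a median of 0.56, none of them by 2-fold.

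Dkk2, a Dickkopf protein that binds Lrp5 and Lrp6, was at 4.43 in Day0, 8.42 in 2WND, 9.73 in 2WND+2W+D, 8.99 in 2WND+2W+D+2W-D and 5.90 in iPS. It was at least 12.4-fold higher in 2WND than in Day0, where it lay below the median of all values. Dkk3, a divergent Dickkopf relative that does not act on the co-receptors in the usual way, was at 5.86 in Day0, 8.62 in 2WND, 9.87 in 2WND+2W+D, 9.55 in 2WND+2W+D+2W-D and 7.56 in iPS. Both kept high values after withdrawal: Dkk3 stood 0.93 above 2WND and 0.33 below the Dox array.

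Sfrp1, which binds Wnt ligands through a Frizzled-like domain, was at 4.82 in Day0, 6.83 in 2WND, 9.22 in 2WND+2W+D, 7.25 in 2WND+2W+D+2W-D and 7.51 in iPS. It was 5.24-fold higher in 2WND+2W+D than in 2WND and 3.92-fold lower in 2WND+2W+D+2W-D than in 2WND+2W+D, and stood 0.42 above 2WND after withdrawal. Sfrp4 was at 3.99 in Day0, 5.63 in 2WND, 6.66 in 2WND+2W+D, 6.17 in 2WND+2W+D+2W-D and 4.75 in iPS. Sfrp2 had a different course, with 4.78 in Day0, 5.98 in 2WND, 6.38 in 2WND+2W+D, 6.57 in 2WND+2W+D+2W-D and 6.45 in iPS, its cultured and iPS values lying within 2-fold of each other. A second Sfrp2 probe stayed between 4.22 and 4.61 on all arrays and did not show it.

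Wif1, a ligand-binding inhibitor, was, like Dkk3, above the median of all values in Day0, with 6.89 there, 6.84 in 2WND, 7.84 in 2WND+2W+D, 7.19 in 2WND+2W+D+2W-D and 4.70 in iPS, at least 4.16-fold lower in iPS than in 2WND. Dkk1, Dkk4 and Sfrp5 lay below 4.78 on every array, so no antagonist difference rests on them. The higher antagonist values came with higher fibroblast markers. All 12 listed were at least 2-fold higher in 2WND than in Day0 (8.94% of all genes were). In 2WND+2W+D against 2WND 6 of 12 were (6.90%), and in 2WND+2W+D+2W-D against 2WND 0 of 12 were (0.888%). The median fibroblast marker was at 5.21 in Day0, 9.48 in 2WND, 11.11 in 2WND+2W+D, 10.09 in 2WND+2W+D+2W-D and 8.51 in iPS. Whether RNA of the feeders or of other mesenchymal cells entered the samples is not stated, its part in the antagonist values was not tested, and in bulk RNA fewer cells of a type and less RNA per cell cannot be told apart.

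The R-spondin axis held the single largest difference of any member. Lgr5, an R-spondin receptor known as the stem cell marker of the mouse intestine, was at 3.95 in Day0, 4.62 in 2WND, 9.25 in 2WND+2W+D, 4.72 in 2WND+2W+D+2W-D and 4.23 in iPS. Counted from the median of all values, below which the other four arrays lay, Lgr5 was at least 22.2-fold higher in 2WND+2W+D than in 2WND and at least 22.2-fold lower in 2WND+2W+D+2W-D than in 2WND+2W+D. Ranked by how far the Dox array stood above the next array or that median, Lgr5 was number 6 of the 15436 genes. Its second probe lay between 4.10 and 4.32 on all arrays and did not follow, so the Lgr5 difference rests on 1 probe.

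Lgr6, a receptor of the same family that marks stem cells in mouse skin, took another course, with 6.06 in Day0, 8.27 in 2WND, 6.64 in 2WND+2W+D, 6.36 in 2WND+2W+D+2W-D and 5.55 in iPS. It was 4.64-fold higher in 2WND than in Day0, 3.10-fold lower in 2WND+2W+D than in 2WND, and still 3.75-fold lower in 2WND+2W+D+2W-D than in 2WND. Lgr6 was the 1 member lower by 2-fold under Dox, and the 1 member lower by 2-fold after withdrawal than in 2WND. Lgr4, the widely expressed receptor of the family, was at 4.52 in Day0, 5.88 in 2WND, 6.84 in 2WND+2W+D, 5.89 in 2WND+2W+D+2W-D and 7.63 in iPS. It was highest in iPS, 3.35-fold above 2WND.

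Of the ligands of these receptors, Rspo3 and Rspo2 were higher under Dox and Rspo1 was not. Rspo3 was at 4.41 in Day0, 6.78 in 2WND, 8.17 in 2WND+2W+D, 7.51 in 2WND+2W+D+2W-D and 4.64 in iPS, at least 3.98-fold higher in 2WND than in Day0 and 2.63-fold higher in 2WND+2W+D than in 2WND. Rspo2, which the mouse needs for limb and lung growth, was at 4.88 in Day0, 5.14 in 2WND, 6.56 in 2WND+2W+D, 5.06 in 2WND+2W+D+2W-D and 5.13 in iPS. Its 4 other arrays lay within 0.26 of each other, a course like that of Lgr5 at a smaller size, whereas Rspo1 stayed between 6.46 and 6.80.

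The ligases that R-spondins act on had their highest values in Day0. Rnf43 was at 8.80 in Day0, 7.73 in 2WND, 6.84 in 2WND+2W+D, 7.54 in 2WND+2W+D+2W-D and 5.82 in iPS, 2.11-fold lower in 2WND than in Day0. Znrf3 was at 8.28 in Day0, 7.37 in 2WND, 7.04 in 2WND+2W+D, 7.21 in 2WND+2W+D+2W-D and 7.12 in iPS, its 2WND value being 0.91 below Day0. Both were lowest among the AEC-II arrays under Dox. The plot of profiles by role shows the Dox array as a single peak for Lgr5 and Rspo2, values of Dkk2, Dkk3 and Rspo3 that are higher in 2WND and higher still under Dox, and Rnf43 at its AEC-II low there.

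**Figure D3:**
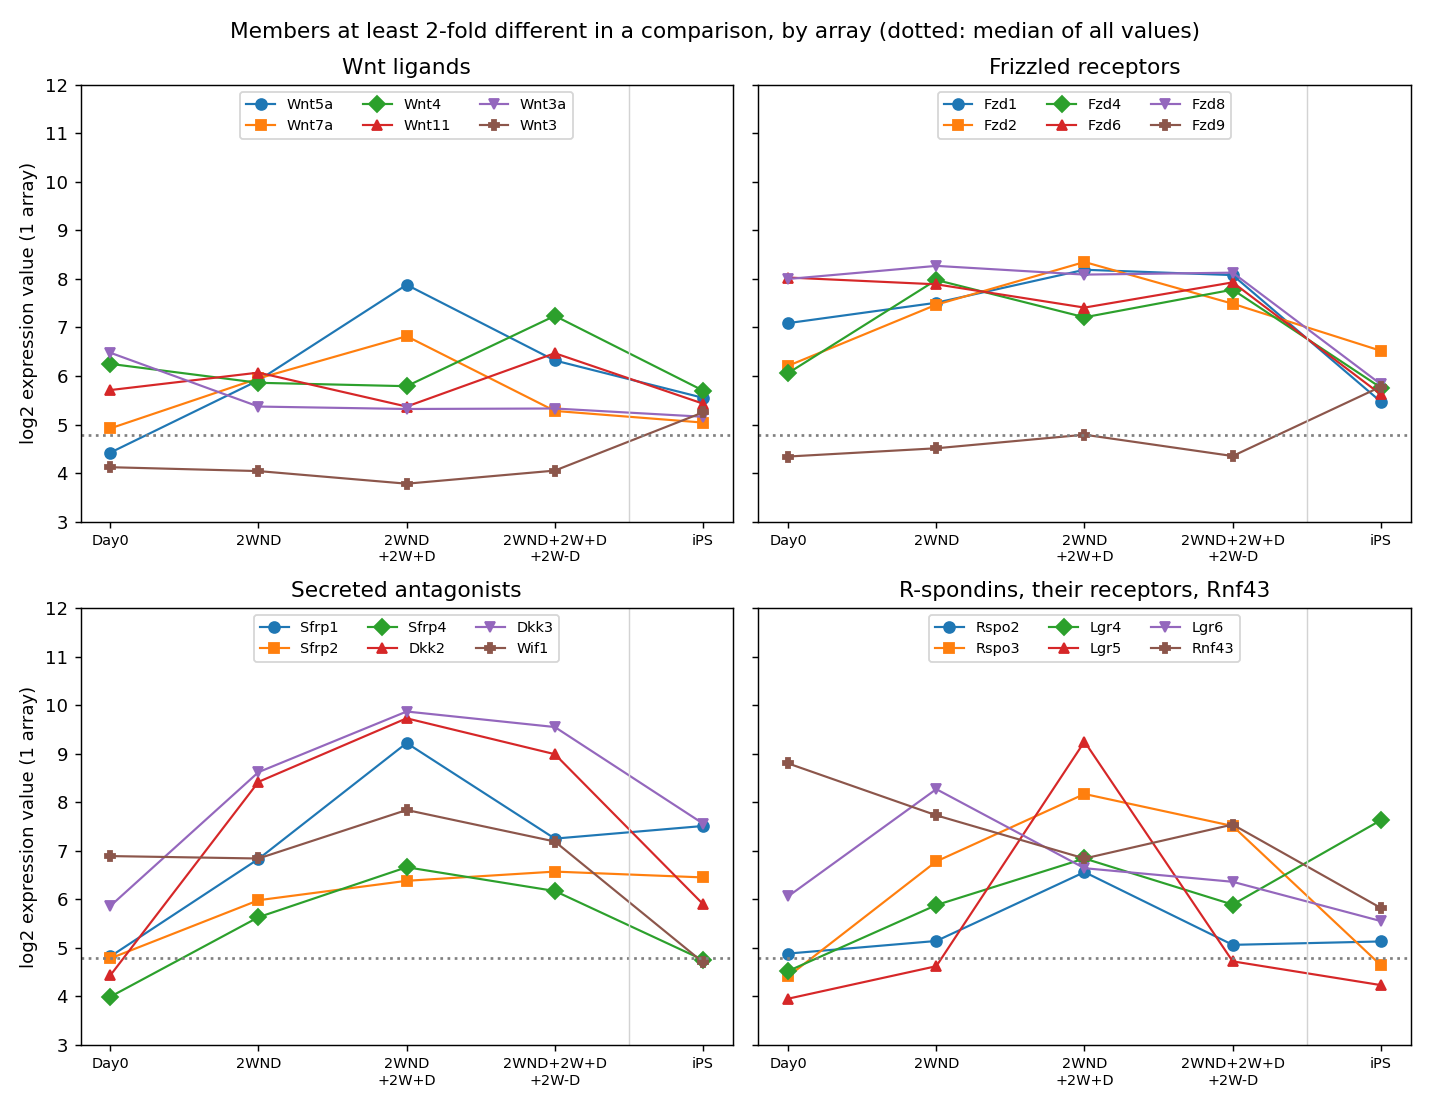
Log2 expression value (y axis, 1 array per point) of 24 members at least 2-fold different in 1 or more comparisons, by role, on the 5 arrays (x axis); lines join a gene's values, the gray line sets off iPS and the dotted line is the median of all values, 4.78. Lgr5 reaches 9.25 in 2WND+2W+D and lies below the dotted line elsewhere, while Wnt4 peaks at 7.24 in 2WND+2W+D+2W-D.

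Axin2, the feedback brake that beta-catenin switches on in most tissues, did not share the high values of the Dox array. It was at 7.22 in Day0, 5.88 in 2WND, 5.70 in 2WND+2W+D, 5.86 in 2WND+2W+D+2W-D and 6.09 in iPS, 2.53-fold lower in 2WND than in Day0 and within 0.18 among the cultured AEC-II arrays. Its second probe lay between 4.12 and 4.86. Lef1, a DNA-binding partner of beta-catenin, was at 5.21 in Day0, 5.51 in 2WND, 5.58 in 2WND+2W+D, 5.56 in 2WND+2W+D+2W-D and 6.94 in iPS, 2.69-fold higher in iPS than in 2WND and level over the AEC-II arrays.

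Of 71 other pathway genes listed, 68 had a probe and 64 were compared. For 2WND against Day0, 8 of them were higher by 2-fold or more and 5 were lower, where 8.94% and 5.21% of all genes were. In 2WND+2W+D against 2WND, 9 were higher and 4 lower (median 0.31), where 6.90% and 7.56% of all genes were. In 2WND+2W+D+2W-D against 2WND+2W+D, 5 were higher and 8 lower (median -0.32), where 8.08% and 6.17% of all genes were. In 2WND+2W+D+2W-D against 2WND none of the 64 differed by 2-fold, near the 1.3% of all genes that did in either direction. The relay and destruction complex, 13 genes including Ctnnb1, which encodes beta-catenin, had 0 at 2-fold across the Dox cycle, a list too short to set against those shares. The other pathway genes that differed 4-fold under Dox were Ccn4, a matrix protein known as a beta-catenin target, Ptk7, a polarity co-receptor, and Nkd1, an inducible inhibitor of Dishevelled. Ccn4 was 7.55-fold higher in 2WND+2W+D, at 9.87, than in 2WND, at 6.96, with 7.18 in 2WND+2W+D+2W-D. Ptk7 was 5.72-fold higher in 2WND+2W+D than in 2WND, at 9.74 in 2WND+2W+D, against 7.22 in 2WND, with 7.76 in 2WND+2W+D+2W-D. Nkd1 was 4.01-fold lower in 2WND+2W+D, at 7.46, than in 2WND, at 9.46, and 6.28-fold higher in 2WND+2W+D+2W-D, at 10.11, than under Dox. Among the 12 genes compared that were listed as beta-catenin targets, Ccn4 and Cd44 were at least 2-fold higher under Dox and Bambi and Nkd1 lower. Of all genes, 6.90% were higher and 7.56% lower, and a list of 12 is too short to set against those shares.

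Outside the Dox cycle, other 4-fold differences were found. Frzb, a further Frizzled-like antagonist, was at 7.66 in 2WND and 3.89 in Day0, at least 7.33-fold higher. Nkd2 was 6.91-fold and Myc 4.13-fold higher in 2WND than in Day0. Nkd1 was 13.9-fold lower in iPS, at 5.67, than in 2WND, at 9.46. Wls, which carries Wnt proteins to the cell surface, was 7.45-fold lower in iPS, at 7.85, than in 2WND, at 10.75. Ror1, a Wnt5a receptor, was 7.74-fold lower in iPS than in 2WND, and Tbx3 was 5.11-fold higher.

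Marker lists for the cell types the cultures could hold differed between the same arrays. Smooth muscle markers were at least 2-fold higher in 2WND+2W+D than in 2WND for 7 of 7 genes (6.90% of all genes were). In 2WND+2W+D+2W-D they were at least 2-fold lower than in 2WND+2W+D for 7 of 7 (6.17%). Their median was at 5.47 in Day0, 5.66 in 2WND, 9.53 in 2WND+2W+D, 6.18 in 2WND+2W+D+2W-D and 7.94 in iPS, and so was highest on the array where Lgr5, Rspo2, Wnt5a and Sfrp1 were highest. Macrophage and leukocyte markers were 2-fold higher in 2WND than in Day0 for 10 of 10 (8.94% of all genes) and lower in 2WND+2W+D than in 2WND for 9 of 10 (7.56%). Their medians were 4.77 in Day0, 9.40 in 2WND, 6.68 in 2WND+2W+D, 9.08 in 2WND+2W+D+2W-D and 5.17 in iPS. Lgr6 was at 8.27 in 2WND, 6.64 in 2WND+2W+D and 6.36 in 2WND+2W+D+2W-D. Ciliated cell markers had medians of 8.25 in Day0, 9.18 in 2WND, 5.13 in 2WND+2W+D, 9.63 in 2WND+2W+D+2W-D and 5.84 in iPS. Wnt4 and Wnt11 were also higher after withdrawal than under Dox, as were macrophage and leukocyte markers. Under Dox, Wnt4 was at 5.79 against 5.86 in 2WND, and Wnt11 was at 5.37 against 6.07 in 2WND. Of 7 markers of alveolar type I cells, 4 were 2-fold higher in 2WND than in Day0 (8.94% of all genes), 4 lower under Dox (7.56%) and 4 higher after withdrawal (8.08%). Of 5 endothelial markers compared, 4 were 2-fold lower in 2WND than in Day0 (5.21%). The part of these cell types in the member values was not tested. The plot of list medians sets the members' role groups beside these markers.

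**Figure D4:**
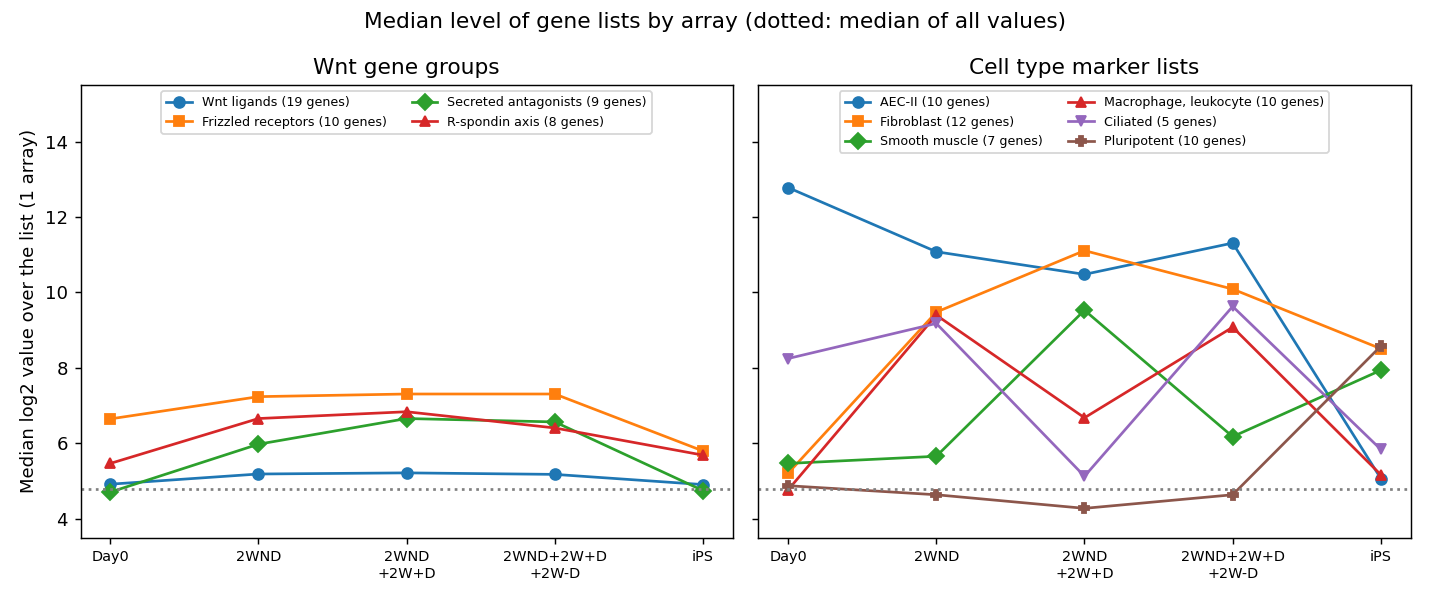
Median log2 value over a gene list on each of the 5 arrays (x axis), for 4 role groups of the Wnt genes (left) and 6 cell type marker lists (right); 1 array per point, with the median of all values dotted. The antagonists' median lies at 4.71 in Day0, 6.66 in 2WND+2W+D and 4.75 in iPS, and the smooth muscle list has its highest median, 9.53, in 2WND+2W+D.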

How the data were processed

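Total RNA of each condition was measured on 1 Affymetrix Mouse Gene 2.0 ST array. The deposited values are log2 expression values that the authors made with Affymetrix Expression Console, as named in the submitters' processing notes. The summary algorithm, the version, the normalization and the genome build are not given in the sources used here. Of 41345 probes, 23521 carried 1 gene symbol in the platform annotation, 1820 carried several and 16004 none, and genes were named from the first of these only. RefSeq (GRCm38.p6) symbols matched 23328 of the 23521 and 193 did not match. A gene was represented by its probe with the highest mean over the 5 arrays. The members and the lists of pathway and marker genes were chosen with earlier results of these data known.

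Differences of log2 values were taken for 5 comparisons, and a difference of 1 (2-fold) was counted, with no test, since each condition had 1 array. Genes whose highest value was under 4.78 were left out, as were probes that name several genes. Members past this filter with a 2-fold difference in any comparison were named with all values, as were Lrp5, Lrp6, Axin2 and Lef1, and other pathway genes were named at 4-fold. A few other genes named are examples chosen after their values were seen. A fold with 1 array under 4.78 was counted from that median and given as a lower bound. Depth has no equivalent on an array, and the number of arrays limits the precision. The 6 alternatives were quantile normalization, aligned medians, no filter, a filter at the 75th percentile (6.82), values raised to the median, and the mean of a gene's probes. The scripts (Python 3.11.15, numpy 2.4.6, pandas 2.3.3, matplotlib 3.10.9) were tested on simulated data.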

Additional observations from a re-analysis of the deposited data

How the results depend on the processing

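Each result rests on 1 array per condition, so no replicate could be left out and biological and array error are unknown. No paired analysis was possible because each condition had 1 array. No 2-fold difference of a named member changed sign under the 6 alternatives. Smaller ones did, 3 under quantile normalization (the largest 0.07 as reported), 4 with aligned medians (0.05) and 3 with a gene's probes averaged (0.21). Counts of members past 2-fold stayed within 1.5 times under every alternative but these. With the filter at the 75th percentile, 1 member was higher in 2WND+2W+D+2W-D than in 2WND+2W+D in place of 2, Wnt11 being left out. With that filter, or with low values raised to the median, 2 members were higher in iPS than in 2WND in place of 4, without Fzd9 and Wnt3. Raising low values also took Sfrp4 out of the members higher in 2WND than in Day0. Sfrp4 and Wif1 came under 2-fold in 2WND+2W+D against 2WND when the array medians were aligned, while quantile normalization added Fzd7 to the members lower in 2WND+2W+D+2W-D than in 2WND+2W+D. Averaging a gene's probes moved 11 of 140 differences by over 0.229, that of Lgr5 after withdrawal the most, by 2.25 on the log2 scale, and took Axin2 and Sfrp2 under 2-fold in 2WND against Day0. Raising low values moved 13 of 140. Quantile normalization and aligned medians moved none by over 0.11.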

Other observations

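The genes that stood highest above every other array under Dox are given here as a list chosen after its values were seen. There were 92 genes at least 4-fold, 34 at least 8-fold and 12 at least 16-fold higher in 2WND+2W+D than in each other array or, where those were lower, than the median of all values. Ctse, a gastric protease, led with 11.91 in 2WND+2W+D against 6.19 in 2WND. Muc5ac, a mucin of stomach and airway surfaces, was at 10.50 in 2WND+2W+D and 4.55 in 2WND. Actg2, a smooth muscle actin, was at 9.53 in 2WND+2W+D and 4.03 in 2WND, and Tnmd, a gene of tendon cells, was at 9.09 in 2WND+2W+D and 3.98 in 2WND. Lgr5 ranked 6, and the list thus holds genes of stratified or mucous epithelium (Krt16, Sprr2b, Slurp1) and of mesenchyme side by side. Among the other Wnt genes, Sfrp1 ranked 144, Wnt5a 185 and Rspo2 224 of 15436.

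Some Wnt genes lie next to each other in the genome. In the RefSeq gene order, Wnt3a and Wnt9a are neighbors on chromosome 11, as are Wnt9b and Wnt3, while Wnt6 and Wnt10a are neighbors on chromosome 1 and Wnt10b and Wnt1 on chromosome 15. For the chromosome 11 pairs, Wnt3a was at 5.32 in 2WND+2W+D and 5.37 in 2WND, and Wnt9a at 6.38 in 2WND+2W+D and 5.91 in 2WND. In iPS, Wnt3 was at 5.25 against 4.04 in 2WND, and Wnt9b at 4.68 against 5.35. Wnt1 and Wnt6 never reached 4.78, so no course was read for the pairs they belong to.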
